A study of Mus musculus with 12 samples.

Results

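The Gene Ontology (GO) terms for cell migration, motility and adhesion were followed through 8 gene lists made from H3K4me3 profiles of the mouse hippocampus. A term was a member if its name, in any case, held "migration", "motility", "locomotion", "adhesion", "taxis", "cell movement" or "movement of cell" and held none of "synap", "axon" and "projection". This gave 15 of the 490 distinct terms that the 8 deposited tables list, and 37 of their 1076 rows. The name of a term and not its count chose it, but only terms that reached at least 1 table could be found.

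The lists came from 12 C57BL/6N mice at postnatal day 30. There were 3 Del/+ mice, heterozygous for an engineered deletion from Arf2 to Kansl1, 3 Kansl1+/- mice, heterozygous for the tm1b(EUCOMM)Hmgu allele of Kansl1 derived from a single ES cell clone, and 6 wt mice, of which 3 were littermates of each mutant. Both mutants therefore lack 1 copy of Kansl1, which encodes a scaffold protein of the NSL complex, a chromatin regulator that acetylates histone H4, and both were compared with the same 6 wt libraries. Whole hippocampus was snap-frozen and profiled for H3K4me3, a histone mark of active promoters, so "up" and "down" refer below to this mark at promoters. In such bulk tissue, fewer cells of a type and less signal per cell cannot be told apart. The tables hold counts of genes per list and no value per mouse, so no spread between mice, no library depth and no check of hippocampal marker genes could be given here.

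The 8 lists were the genes up in Kansl1+/- (343 genes), up in Del/+ (512), down in Kansl1+/- (483) and down in Del/+ (343), and 4 clusters of the genes up in either mutant. Cluster 1 (160 genes) was described as up in Kansl1+/- but not in Del/+, cluster 2 (214) as up in both mutants, cluster 3 (212) as up more strongly in Del/+, and cluster 4 (162) as up specifically in Del/+. These descriptions do not hold for every gene, since 181 of the 214 genes named for cluster 2 were among the 340 names held for Kansl1+/- up. The sizes were derived here from the tables and count genes, not promoters. They and a background of 23468 genes are the only ones within the range searched that give every expected number printed in the tables. Fewer names than genes were held for 5 of the lists, 472 for the 512 genes of Del/+ up. The paper's own count of promoters up in Del/+ is also below 512. The lists are not independent, since the clusters were cut from the up lists and the mutants share their controls.

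Cells move by extending the membrane at the front, gripping the surroundings through adhesion receptors such as integrins and letting go at the rear. Chemotaxis is movement or growth along a chemical gradient, and GO places the guidance of growing axons within it. Locomotion is the broad term that holds both cell motility and taxis. In the hippocampus these gene classes serve migrating young neurons, axons and their targets, vessel walls and glia, and the adhesion terms hold the molecules that fasten cells to each other and to the extracellular matrix.

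Member terms were listed for 5 of the 8 gene lists, all of them lists of genes with raised H3K4me3. The Kansl1+/- up list held 13 of the 15 terms, where 61.6% of all 490 terms were listed. The Del/+ up list held 9 of 15, against 51.0% of all terms. Cluster 1 held 9 of 15, against 38.8% of all terms, and cluster 3 held 4 of 15, against 25.5%. Cluster 2 held 2 of 15, against 21.2%. None of the 15 was listed for cluster 4 (18.2% of all terms listed), for Kansl1+/- down (2.86%) or for Del/+ down (0.408%). The member terms are nested and many hold nearly the same genes, so these counts are not counts of separate results, and no test of them was made.

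**Figure D1:**
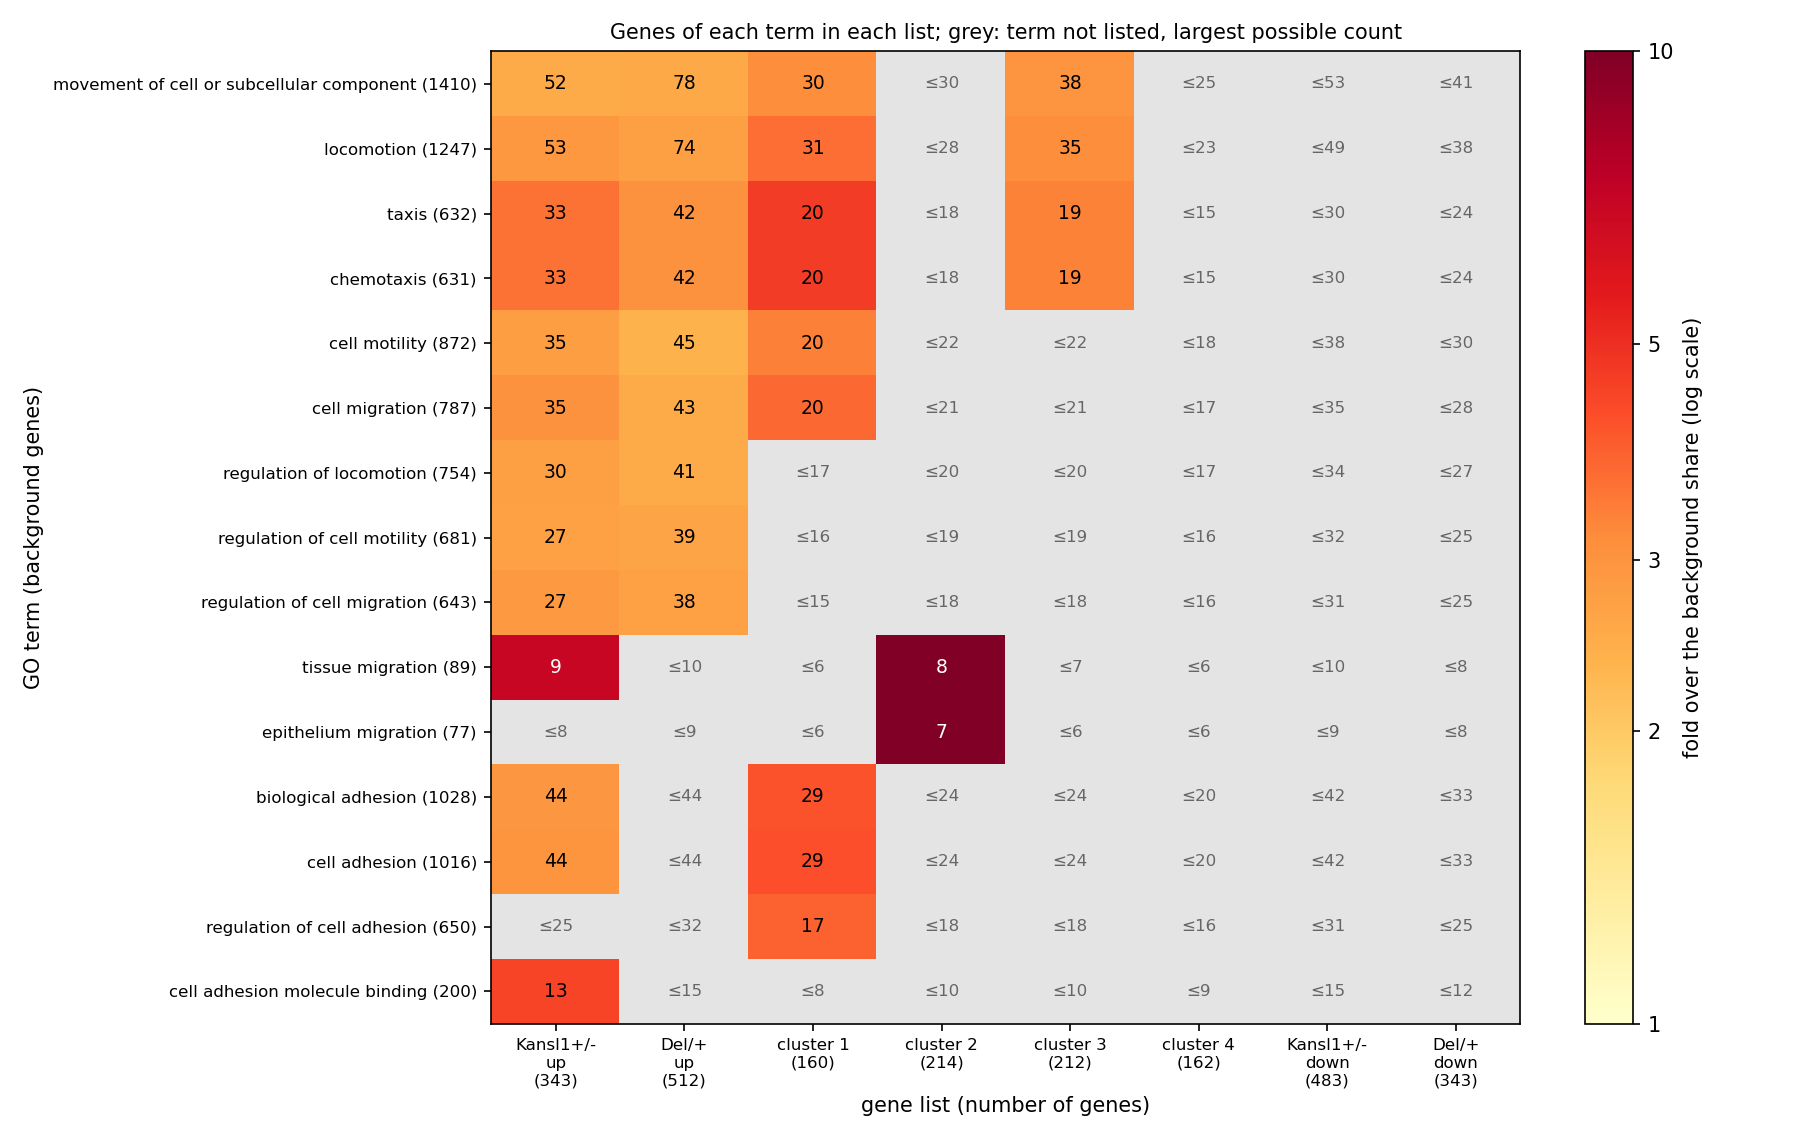
Each cell gives the number of genes of a GO term (rows, with the number of background genes) in a gene list (columns, with the number of genes), and its colour gives the fold over the background share on a log scale. Grey cells are terms that the table does not list, with the largest count they could hold. The adhesion terms are coloured for Kansl1+/- up and cluster 1, the locomotion and taxis terms for both up lists and clusters 1 and 3, and the last 3 columns hold no listed term.

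A term missing from a table is not at 0. The highest p in the 8 tables was 9.91e-06, so a term was taken to be listed when its one-sided hypergeometric p fell below 1e-05, and 0 of the listed rows lay below the least count that this requires. The same rule gives the largest count that an unlisted term could hold. Of the 37 member rows, 7 stood exactly at the least count that is listed.

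Locomotion (GO:0040011, 1247 background genes or 5.31% of the background) was one of 4 member terms listed for 4 lists. It held 53 of the 343 Kansl1+/- up genes where 18.2 were expected, a share of 15.5% (exact Clopper-Pearson 95% interval 11.8 to 19.7) and a 2.91-fold excess. Of the 512 Del/+ up genes, 74 belonged to it where 27.2 were expected, a share of 14.5% (11.5 to 17.8) and 2.72-fold. The 2 mutants thus differed little in this share, and each interval held the other's value. These intervals, here and below, cover counting error over genes only. The limits given for unlisted terms carry no such interval. A limit that lies under an interval therefore does not by itself show a difference between lists.

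In cluster 1, locomotion held 31 of 160 genes where 8.50 were expected, a share of 19.4% (13.6 to 26.4) and 3.65-fold. Cluster 3 held 35 of 212 genes where 11.3 were expected, a share of 16.5% (11.8 to 22.2) and 3.11-fold. Cluster 1 had the highest share of the 4 lists, with an interval that overlapped the other 3. Locomotion was not listed for cluster 2, where it could hold at most 28 of 214 genes (13.1%), or for cluster 4, with at most 23 of 162 (14.2%). For the down lists the limits were lower, at 49 of 483 genes (10.1%) in Kansl1+/- and 38 of 343 (11.1%) in Del/+, both under the lower bounds of the intervals of the 4 lists with a count.

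Movement of cell or subcellular component (GO:0006928, 1410 background genes) also covers transport inside the cell. It held 52 Kansl1+/- up genes (2.52-fold), 78 Del/+ up genes (2.54-fold), 30 cluster 1 genes (3.12-fold) and 38 cluster 3 genes (2.98-fold). Its shares were 15.2% in both up lists, 18.8% in cluster 1 and 17.9% in cluster 3, against 6.01% of the background. The part of this term outside cell motility, 538 background genes, held 33 Del/+ up genes where 11.7 were expected (2.81-fold) and 17 Kansl1+/- up genes where 7.86 were expected (2.16-fold). In cluster 1 it held 10 genes where 3.67 were expected (2.73-fold). This subtraction was chosen after the counts had been seen.

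Chemotaxis (GO:0006935, 631 background genes) and taxis (GO:0042330, 632) differ by 1 background gene and had the same count in every list that holds them. Chemotaxis covered 33 Kansl1+/- up genes where 9.22 were expected, a share of 9.62% (6.72 to 13.2) and 3.58-fold. It covered 42 Del/+ up genes where 13.8 were expected, a share of 8.20% (5.98 to 10.9) and 3.05-fold. In cluster 1 there were 20 genes where 4.30 were expected, a share of 12.5% (7.81 to 18.6), and this 4.65-fold excess was the highest of the 9 member terms listed for cluster 1. Cluster 3 held 19 genes where 5.70 were expected, a share of 8.96% (5.48 to 13.6) and 3.33-fold, which is the least count that the table would list. Cluster 2 could hold up to 18 genes and cluster 4 up to 15 without being listed, so that with 18 genes of 214 (8.41%) cluster 2 would fall within the interval of cluster 3.

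**Figure D2:**
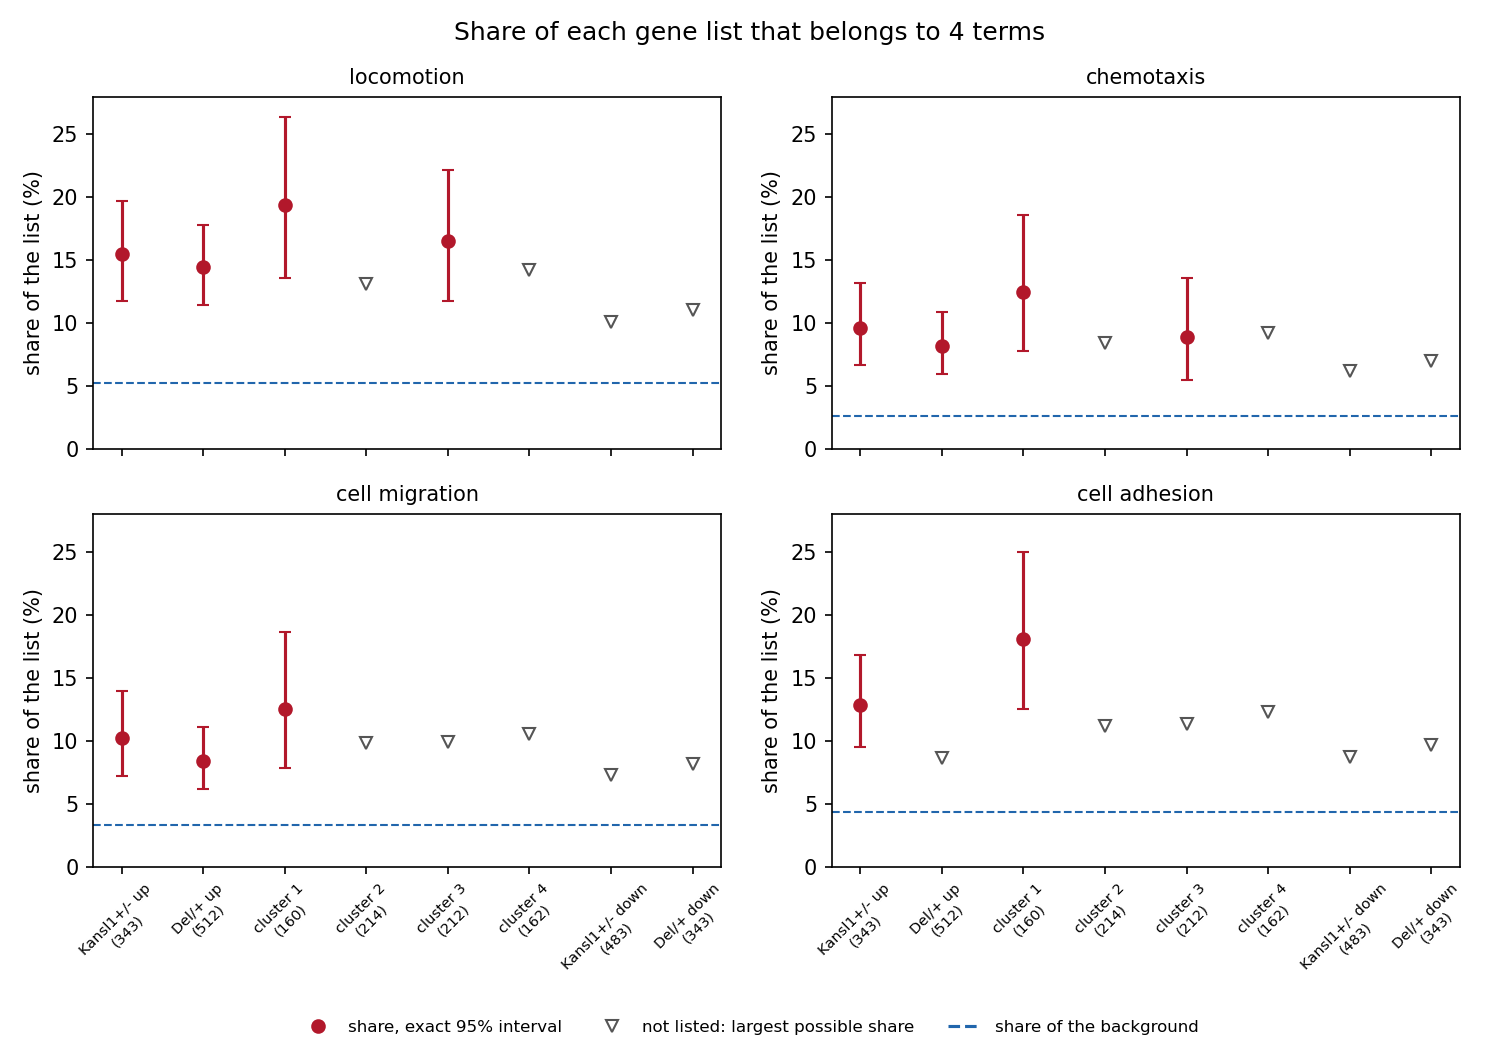
Points give the share of each gene list (%) that belongs to locomotion, chemotaxis, cell migration or cell adhesion, with exact 95% intervals, open triangles the largest share possible where the term is not listed, and the dashed line the share of the background. For cell adhesion the limit of Del/+ up, 8.59%, lies under the interval of Kansl1+/- up, 9.48 to 16.8. The triangles are drawn without counting error, so this is not a test of a difference.

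Most of the chemotaxis genes in these lists were axon guidance genes, as are most of those in the background. Axon guidance (407 background genes), which wires growing axons to their targets, lies within chemotaxis and makes up 64.5% of its background genes. It made up 26 of the 33 chemotaxis genes in Kansl1+/- up (78.8%), 34 of 42 in Del/+ up (81.0%), 16 of 20 in cluster 1 (80.0%) and 16 of 19 in cluster 3 (84.2%). No interval was computed for these percentages, and their distance from the background was not tested. Its own folds were 4.37, 3.83, 5.77 and 4.35 in these lists.

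The remaining 224 chemotaxis genes, which include those for chemokine-guided movement of cells, gave small counts. They numbered 7 in Kansl1+/- up where 3.27 were expected (2.14-fold), with a share of 2.04% (0.824 to 4.16). There were 8 in Del/+ up where 4.89 were expected (1.64-fold), with a share of 1.56% (0.677 to 3.06). Cluster 1 held 4 where 1.53 were expected (2.62-fold) and cluster 3 held 3 where 2.02 were expected (1.48-fold). In each of these 4 lists the fold outside axon guidance was lower than the fold of axon guidance. Axon guidance was counted only where it was listed, which itself needs a high fold. The genes outside it faced no limit of their own, and the lists share genes, so the lower folds are a description only. At counts of 3 to 8 genes the intervals are wide, and each of them includes the number expected.

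Locomotion kept an excess without the axon guidance genes. The 840 locomotion genes outside axon guidance, a difference chosen after the counts had been seen, held 27 Kansl1+/- up genes where 12.3 were expected (2.20-fold) and 40 Del/+ up genes where 18.3 were expected (2.18-fold). In cluster 1 they held 15 genes where 5.73 were expected (2.62-fold), and in cluster 3 19 genes where 7.59 were expected (2.50-fold). Axon guidance supplied 49.1%, 45.9%, 51.6% and 45.7% of the locomotion counts in these lists, against 32.6% of the locomotion genes in the background. These percentages too were taken only where axon guidance was listed. The 615 locomotion genes outside taxis gave 20 genes in Kansl1+/- up (2.23-fold), 32 in Del/+ up (2.38-fold), 11 in cluster 1 (2.62-fold) and 16 in cluster 3 (2.88-fold).

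**Figure D3:**
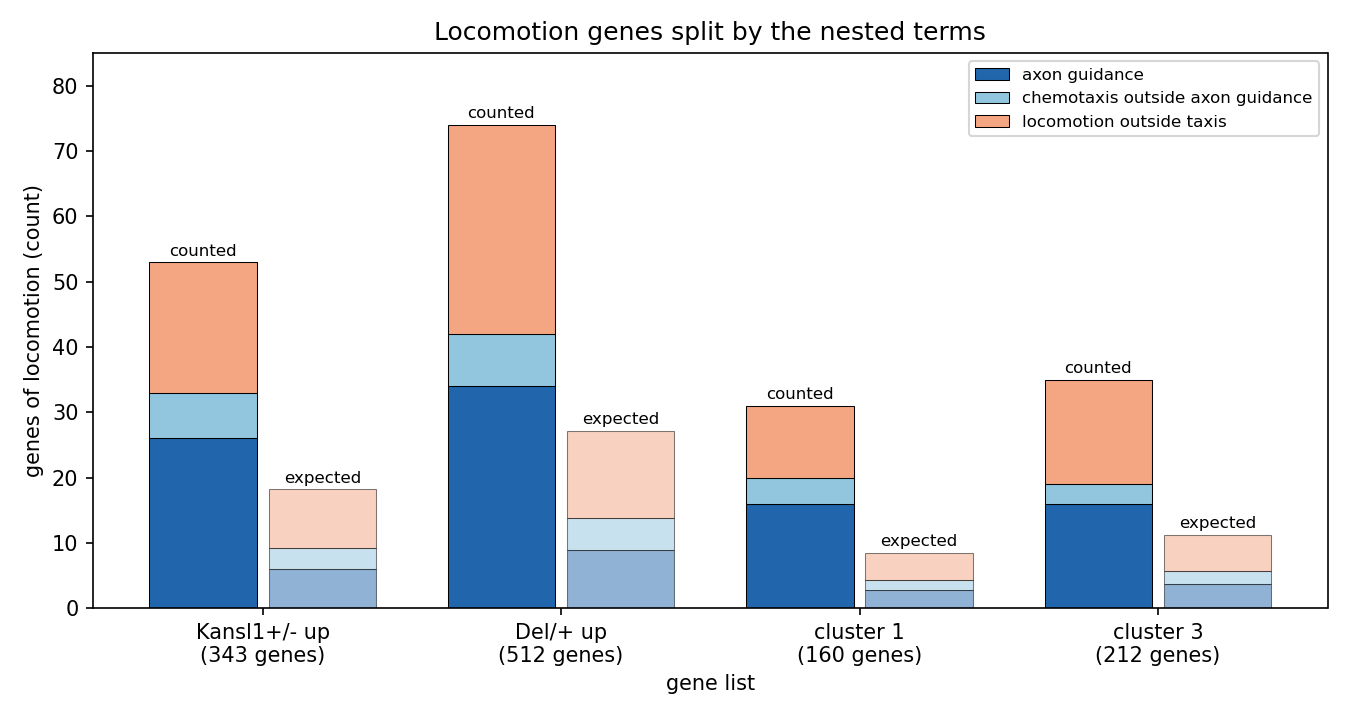
For each of the 4 lists where locomotion is listed, the left bar stacks the number of its genes in axon guidance, in chemotaxis outside axon guidance and in locomotion outside taxis, and the pale right bar the numbers expected. In Del/+ up the 3 parts hold 34, 8 and 32 genes where 8.88, 4.89 and 13.4 were expected.

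Cell migration (GO:0016477, 787 background genes), the movement of single cells from one site to another, and cell motility (GO:0048870, 872) were listed for 3 lists. Cell migration held 35 Kansl1+/- up genes where 11.5 were expected, a share of 10.2% (7.21 to 13.9) and 3.04-fold. In Del/+ up it held 43 genes where 17.2 were expected, a share of 8.40% (6.14 to 11.1) and 2.50-fold. In cluster 1 it held 20 genes where 5.37 were expected, a share of 12.5% (7.81 to 18.6) and 3.73-fold.

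Cell motility gave 35 genes in Kansl1+/- up (2.75-fold), 45 in Del/+ up (2.37-fold) and 20 in cluster 1 (3.36-fold). Every cell motility gene of Kansl1+/- up and of cluster 1 was thus a cell migration gene, while Del/+ up held 2 genes outside it where 1.85 were expected. Neither term was listed for cluster 3, whose locomotion and taxis terms were listed, and there cell migration could hold at most 21 of 212 genes (9.91%, or 2.95-fold). This limit lies within the interval of cluster 1, so a difference between clusters 1 and 3 was not detectable from these tables.

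The 3 member terms for the control of movement were listed for both up lists and for none of the 4 clusters. A close term outside the name rule, regulation of cellular component movement (763 background genes), was listed for both up lists (2.69-fold in Kansl1+/- up and 2.64-fold in Del/+ up) and also for cluster 3 (3.34-fold). Regulation of locomotion (GO:0040012, 754 background genes) held 30 Kansl1+/- up genes where 11.0 were expected (2.72-fold) and 41 Del/+ up genes where 16.4 were expected (2.49-fold). Regulation of cell motility (GO:2000145, 681) held 27 (2.71-fold) and 39 (2.62-fold), and regulation of cell migration (GO:0030334, 643) held 27 (2.87-fold) and 38 (2.71-fold). The Kansl1+/- up counts of the last pair stood 1 gene above the least count listed. The share of regulation of cell migration was 7.87% in Kansl1+/- up and 7.42% in Del/+ up, with lower interval bounds of 5.25 and 5.31. The clusters are smaller lists, and regulation of cell migration could reach 15 genes in cluster 1 (9.38%), 18 in clusters 2 (8.41%) and 3 (8.49%), and 16 in cluster 4 (9.88%) and not be listed, so shares as high as those of the up lists would not show.

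Tissue migration and epithelium migration were the 2 member terms listed for cluster 2. Tissue migration (GO:0090130, 89 background genes) is the joint movement of the cells of a tissue, as when a sheet of endothelium sprouts, and epithelium migration (GO:0090132, 77) lies within it. Cluster 2 held 8 tissue migration genes where 0.812 were expected, a share of 3.74% (1.63 to 7.23) and 9.86-fold. Of these, 7 were epithelium migration genes where 0.702 were expected, a share of 3.27% (1.33 to 6.62) and 9.97-fold. Tissue migration was listed too for Kansl1+/- up, with 9 genes where 1.30 were expected (6.92-fold), and at most 8 of its genes there could be epithelium migration genes.

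All 3 of these counts were the least that the tables list, and the fold intervals were wide, 4.29 to 19.1 for tissue migration in cluster 2. Since Kansl1+/- up held 9 and cluster 2 held 8, at least 1 of the 9 lay outside cluster 2. Del/+ up, with 512 genes, could hold up to 10 tissue migration genes (5.15-fold) unlisted, and cluster 1 up to 6 (9.89-fold).

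The adhesion terms were listed for cluster 1 and Kansl1+/- up and for no other list. Cell adhesion (GO:0007155, 1016 background genes), the attachment of cells to each other or to the matrix, held 29 of the 160 cluster 1 genes where 6.93 were expected, a share of 18.1% (12.5 to 25.0) and 4.19-fold. It held 44 Kansl1+/- up genes where 14.8 were expected, a share of 12.8% (9.48 to 16.8) and 2.96-fold. Biological adhesion (GO:0022610, 1028) gave the same 29 and 44 genes, so its 12 further background genes added none.

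Del/+ up could hold at most 44 cell adhesion genes unlisted, which is the count of Kansl1+/- up, but in a list of 512 genes this is 8.59% and at most 1.99-fold. Such a share lies below the interval of Kansl1+/- up, but the limit is given without counting error of its own. The lists also share genes and controls, and a difference was not tested. The limits were 24 genes in cluster 2 (11.2%), 24 in cluster 3 (11.3%) and 20 in cluster 4 (12.3%). Each lay under the interval of cluster 1, again without counting error of its own. For the down lists they were 42 genes in Kansl1+/- (8.70%) and 33 in Del/+ (9.62%).

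Regulation of cell adhesion (GO:0030155, 650 background genes) was listed for cluster 1 alone, with 17 genes where 4.43 were expected, a share of 10.6% (6.31 to 16.5) and 3.84-fold, the least count listed. Kansl1+/- up could hold up to 25 of its genes (7.29%). Cell adhesion molecule binding (GO:0050839, 200), a molecular function term for proteins that bind adhesion receptors, was listed for Kansl1+/- up alone. It held 13 genes where 2.92 were expected, a share of 3.79% (2.03 to 6.39) and 4.45-fold, again the least count listed. Cluster 1 could hold up to 8 of these genes and Del/+ up up to 15 (3.44-fold).

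All 160 genes named for cluster 1 were also named for Kansl1+/- up, so the counts of the pair could be subtracted, a step chosen after they had been seen. The 183 Kansl1+/- up genes outside cluster 1 held 15 cell adhesion genes where 7.92 were expected, a share of 8.20% (4.66 to 13.2) and 1.89-fold. In cluster 1 that fold was 4.19. Outside cluster 1, locomotion held 22 genes where 9.72 were expected (2.26-fold), chemotaxis 13 where 4.92 were expected (2.64-fold) and cell migration 15 where 6.14 were expected (2.44-fold). Only terms listed for cluster 1 could be subtracted, and listing itself needs a high fold there, so the lower folds outside the cluster are a description only. Of the 44 cell adhesion genes, 29 lay within the cluster.

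In Del/+ up, at least 39 of the 74 locomotion genes lay outside cluster 3, since that cluster held 35. At least 23 of the 42 chemotaxis genes and 40 of the 78 genes of movement of cell or subcellular component also lay outside it. Unlisted, clusters 2 and 4 could hold up to 28 and 23 locomotion genes, 18 and 15 chemotaxis genes, and 30 and 25 genes of movement of cell or subcellular component.

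In 4 of the 5 lists the median fold of the members was below that of all listed terms. The median fold of the 13 members in Kansl1+/- up was 2.93, and that of all 302 listed terms 3.05. In Del/+ up the medians were 2.62 for 9 members and 3.16 for 250 terms, in cluster 1 they were 3.84 and 3.99 (190 terms), and in cluster 3 they were 3.22 and 3.42 (125 terms). The 2 members in cluster 2 had a median of 9.91, against 3.53 for 104 terms, but they are small terms with a median of 83.0 background genes, against 644 for all terms listed there. Small terms need a larger fold to be listed, and with terms of at most 1000 background genes the median of all terms listed for cluster 2 was 8.20. The same limit widened the gap in the other 4 lists. It gave medians of 3.04 for the members and 4.09 for all terms in Kansl1+/- up, 2.62 and 3.96 in Del/+ up, 3.84 and 5.99 in cluster 1, and 3.33 and 4.32 in cluster 3.

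**Figure D4:**
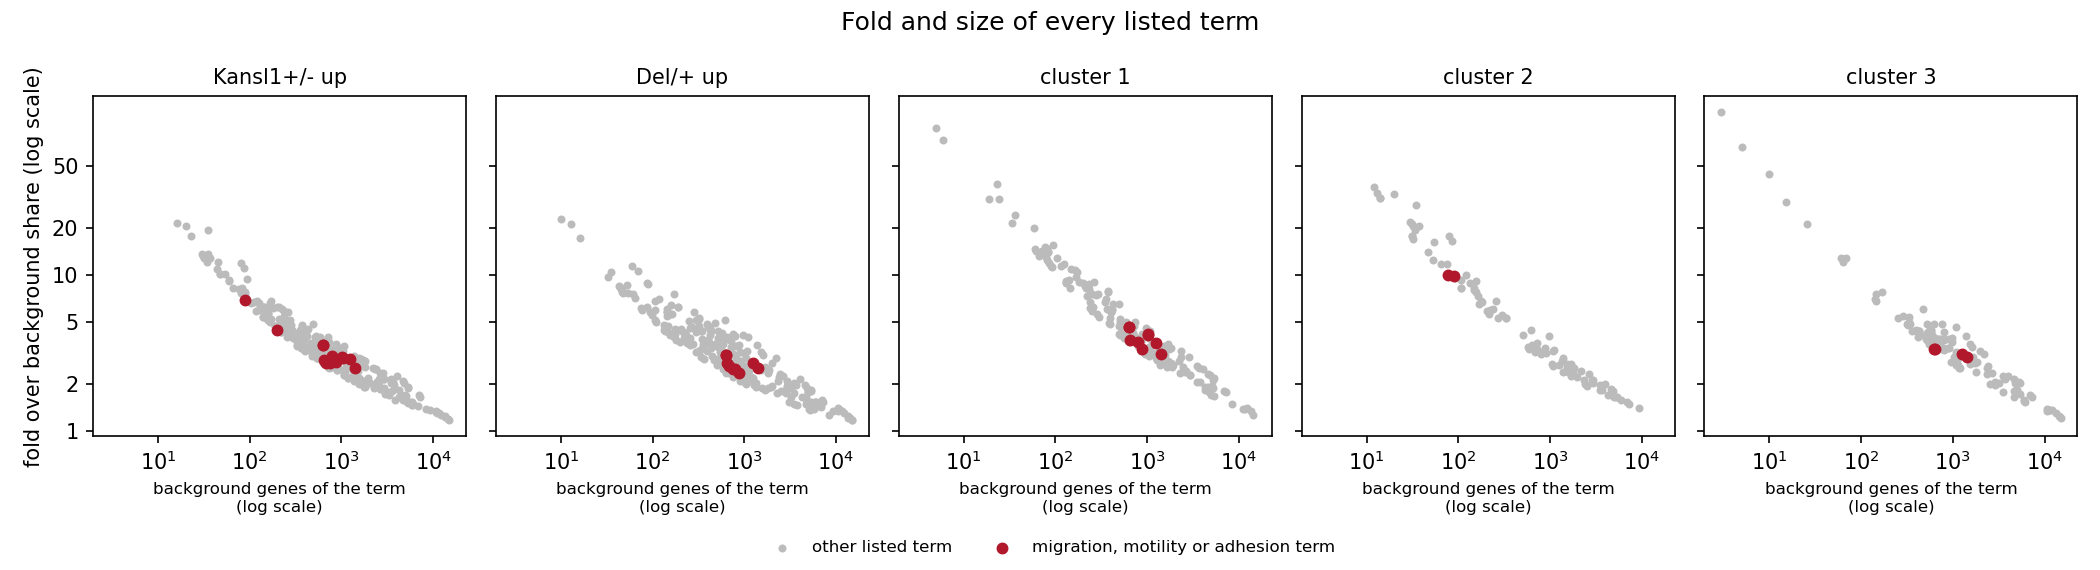
Each point is a listed GO term, placed by its number of background genes and its fold over the background share, both on log scales, with the migration, motility and adhesion terms in red and 1 panel per gene list. Folds fall with term size in all 5 lists, and the members lie within the band of the other terms, the pair in cluster 2 at 9.86 and 9.97.

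The tables divide their terms into groups, and the company of the members differed between lists. In Kansl1+/- up, locomotion, movement, cell migration, cell motility and both adhesion terms formed 6 of the 7 terms of a group whose other term was localization of cell. In cluster 1, cell adhesion and biological adhesion stood in a group of 2, while cell migration, cell motility and regulation of cell adhesion stood in a group of 6 with cell surface, localization of cell and negative regulation of immune system process. In Del/+ up, where the adhesion terms were not listed, locomotion, movement, chemotaxis and taxis fell in a group of 20 terms whose other terms were mostly those of neuron development, axon growth and cell morphogenesis. Locomotion and movement also stood with neuron terms in cluster 1, in a group of 8 that held neurogenesis and neuron differentiation. In cluster 3 both stood in a group of 13 that held neuron development and neuron projection development.

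Vascular terms stood in 1 group with members in each up list, and in none of the groups with members in the clusters. Blood vessel morphogenesis was itself listed for cluster 1, with 13 genes (4.82-fold), in a group without members. Its folds were 4.15 in Kansl1+/- up and 3.24 in Del/+ up. In Del/+ up, cell migration and cell motility shared a group of 8 with angiogenesis, blood vessel morphogenesis, blood vessel development and vasculature development. In Kansl1+/- up, tissue migration and cell adhesion molecule binding shared a group of 5 with sprouting angiogenesis and regulation of angiogenesis. Chemotaxis and taxis stood with axon guidance in all 4 lists that hold them, in groups of 16 terms in Kansl1+/- up, 20 in Del/+ up, 16 in cluster 1 and 6 in cluster 3.

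Of 24 related terms outside the name rule, 16 were listed for at least 1 list. Extracellular matrix, proteinaceous extracellular matrix and extracellular matrix organization were listed for the same lists as cell adhesion. Extracellular matrix (428 background genes), the scaffold to which adhesion receptors bind, held 19 cluster 1 genes (6.51-fold) and 28 Kansl1+/- up genes (4.48-fold), and extracellular matrix organization (374) held 20 (7.84-fold) and 26 (4.76-fold). Del/+ up could hold at most 24 extracellular matrix genes (4.69%), under the interval of Kansl1+/- up, whose share of 8.16% had a lower bound of 5.49. This limit too carries no counting error, and a difference was not tested. Cell surface (805) was also listed for cluster 1, with 21 genes (3.83-fold), and for Kansl1+/- up, with 33 (2.80-fold).

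Cell junction (1138 background genes), a location term that in brain includes synapses, was listed for 3 lists that lack the adhesion terms. It held 61 Del/+ up genes (2.46-fold), 27 cluster 3 genes (2.63-fold) and 25 cluster 4 genes (3.18-fold). Its limits in cluster 1 (22 genes, 2.84-fold) and in Kansl1+/- up (36 genes, 2.16-fold) leave room for an excess there. The 8 related terms listed for no list were basement membrane, anchoring junction, cell-cell junction, cell-substrate junction, cell leading edge, integrin binding, heparin binding and glycosaminoglycan binding.

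The deposited tables name no gene, but the study gives the names of genes in its lists, and those of known adhesion, guidance and migration families are given here as names only. Cluster 1 included Vcam1, an endothelial receptor for integrins, Cd44, the hyaluronan receptor, the tight junction claudins Cldn1 and Cldn2, the nectin Pvrl3 and the basement membrane collagens Col4a3 and Col4a4. It also included the guidance ligands Slit2, Sema3e and Sema4a, the matrix protein Thbs1, the ephrin receptor Epha5, the growth factor receptors Met and Kdr, the atypical chemokine receptor Ackr3, the protocadherin Pcdh7 and the cadherin-related Cdhr3. These names were also in the Kansl1+/- up list.

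Cluster 2 included the ephrin ligand Efnb2, the semaphorin receptors Plxna2 and Plxna4, the netrin receptor Unc5d, the cadherin Cdh13 and the synaptic adhesion protein Nlgn1. Cluster 3 included the classical cadherins Cdh1 and Cdh2, the semaphorin and VEGF receptor Nrp1, the ephrin Efna5, the plexin Plxnc1 and the chemokine Cxcl14. Cluster 4 included the contactins Cntn4, Cntn5 and Cntn6 and the ephrin receptor Epha10. Members of the contactin-associated Cntnap family were named too, Cntnap5b and Cntnap5c in cluster 2, Cntnap3 and Cntnap4 in cluster 3, and Cntnap2 in both cluster 1 and cluster 4. Cntnap2 was also named for both up lists, so the descriptions of clusters 1 and 4 do not hold for it. The paper, in contrast, counts Cntnap2 among genes raised in Del/+ specifically. Several clustered protocadherins were also named in clusters 2, 3 and 4. Since these genes have neighbouring promoters, reads could be split among them, which was not tested.

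Genes of these families were also named for the down lists. Del/+ down included the claudin Cldn11 of myelin, the ephrin Efna1 and the integrin subunit Itga3, and Kansl1+/- down included Efna1 and the netrin Ntn5. The names of both up lists, both down lists and cluster 4 were held in part only, so a name missing from them was not read, and which of these genes the GO counts hold is not given in the tables.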

How the data were processed

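H3K4me3 ChIP-seq reads of 12 hippocampal libraries were mapped by the authors with BWA 0.6.2 to mm9 (submitters' processing notes). Peaks were called with their own C++ script. The authors compared promoters with DESeq2, each mutant against all 6 wt libraries, at a p threshold for which the paper names no correction. They tested GO terms with hypergeometric tests. In the 8 deposited tables the authors give the count of list and background genes per term and an expected number, used here as a score to 2 decimals. Their corrected p-values and folds were not used, and the listing p was read for its highest value only. The tables hold 0 columns per sample that were left unused.

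Background and list sizes were found as the smallest whole numbers (background 5000 to 40000) that give every expected number. Shares, expected numbers, folds over the background share, exact 95% intervals and limits of unlisted terms were computed in Python with scipy 1.17.1, after the procedure had been tested on simulated data. No test between lists was made. Terms listed for at least 3 lists or for cluster 2 were to be described in full, and genes were named by family, the clustered protocadherins as a group, and 1 gene is not reported here. The members, families, related terms and alternatives were chosen with earlier results of these data known.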

Additional observations from a re-analysis of the deposited data

How the results depend on the processing

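The number of listed members depended on how nested terms were counted. With terms of nearly the same genes counted once, 8 remained for Kansl1+/- up, 5 for Del/+ up and 1 for cluster 2. With terms of at most 1000 background genes, 5 remained for cluster 1 and 2 for cluster 3. With a listing threshold 10 times lower (1e-06), 0 remained for cluster 2 and 2 for cluster 3, since their counts stand at or near the least count listed. Kansl1+/- up, Del/+ up and cluster 1 stayed within 1.5 times their counts at that threshold, and the wider name rule changed no count.

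For each of the 37 folds, 1 gene fewer, the printed expected number and the Wilson interval left the value within its exact interval and the lower bound above 1. These outcomes were fixed in advance and lend the folds no support. The sizes were derived from the printed expected numbers, the exact interval of such a count spans a change of 1 gene, and listing itself requires an excess. The medians of the members stayed within the interval of their middle term. No limit of an unlisted term moved by over 1.5 times. No paired analysis was possible because the tables hold no value per mouse, and for the same reason no replicate could be left out. The limits assume that every term under the threshold was listed.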
